A study of Homo sapiens with 6 samples.

Results

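The early transcriptional response to C1-27 was measured in HCT116 cells, an established human colorectal carcinoma line. C1-27 is a chloroacetamide that binds covalently to GSTO1, glutathione S-transferase omega 1, an enzyme of the glutathione transferase family. The members of the comparison were 3 of the 6 libraries of the series, namely 1 culture given 1 μM C1-27 for 4 h and 2 cultures given the vehicle, 0.01% DMSO, for 4 h. All cultures were labelled with 2 mM bromouridine for 30 min before the labelled RNA was captured and sequenced (Bru-seq), so each value reports RNA made in that window rather than the standing pool of transcripts. The other cultures received 1 μM C1-27 for 24 h, 10 μM C1-14, the inactive analogue, for 4 h, or 10 nM GSTO1 siRNA for 24 h, and they appear here only beside the results for C1-27 at 4 h. No drug arm had a second culture, so the difference between both DMSO cultures was the only measure of spread. No source used here says whether those cultures were independent, and p-values may therefore cover technical spread alone. The files held 22984 gene rows on the sense strand, of which 21471 genes were longer than 300 bp and entered the comparison.

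Many cells answer electrophilic compounds through NRF2 (gene name NFE2L2), a transcription factor that is held at low levels by the cysteine-rich adaptor KEAP1. Electrophiles that modify KEAP1 cysteines let NRF2 accumulate and, with a small MAF partner, bind antioxidant response elements at genes for glutathione synthesis, thioredoxin recycling, NADPH supply, haem breakdown and drug metabolism. The glutathione and thioredoxin systems keep the thiols of proteins and small molecules reduced.

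The genes that stood highest with C1-27 were searched for the core of this element, TGACNNNGC on either strand, in the window from 250 bases before to 50 bases after each RefSeq start site. Promoters were in the table for 7 of the 11 genes that were at least 1.4-fold above each DMSO culture, and 3 of these (42.9%), namely GCLM, TXNRD1 and CYP4F11, held the core. The core was found for 4384 of all 27305 genes in the table (16.1%) and in 4687 of 35116 windows (13.3%). A gene was counted when any of its windows held the core, so genes with several start sites had more chances. Among the genes of 6 antioxidant lists described below it was found for 15 of 49 (30.6%), and among the 18 genes at least 1.4-fold below each DMSO culture it was found for 1 of the 5 with a promoter in the table (20%), which was MT2A. The windows around each core are shown because they are the stretches these raised genes have in common with the element, in GRCh38.p14 coordinates with the core in capitals, each 5′ to 3′ on the strand named.
GCLM, chr1:93909446-93909474, plus strand: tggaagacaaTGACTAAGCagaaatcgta
TXNRD1 upstream start, chr12:104215670-104215698, plus strand: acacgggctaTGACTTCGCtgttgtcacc
TXNRD1 upstream start, chr12:104215761-104215789, minus strand: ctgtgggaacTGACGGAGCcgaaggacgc
TXNRD1 downstream start, chr12:104286920-104286948, minus strand: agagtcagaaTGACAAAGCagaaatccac
CYP4F11, chr19:15935005-15935033, plus strand: cagctcagggTGACACAGCatgggcacag
The centre of the core lay 30 bases before the start of GCLM, 152 before that of CYP4F11, and 95, 4 and 98 before the starts of TXNRD1 in the order shown. None of these cores overlapped the AP-1 motif TGACTCA. Among the antioxidant lists, cores in the promoters of ME1, PIR and SLC3A2 did overlap it. The overlapping core of ME1, which encodes an NADPH-producing malic enzyme, is shown as an example, 133 bases before the start, and a second core in that promoter did not overlap AP-1.
ME1, chr6:83431170-83431198, minus strand: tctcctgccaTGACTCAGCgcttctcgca
A match to these letters is a description of the promoter and does not show binding. Promoters of SLC7A11, HMOX1, EID3 and HIST1H3E were not analysed here.

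Library depth ranged from 18112861 sense counts in DMSO culture 1 to 36841146 with C1-27 at 24 h, with 32906297 in DMSO culture 2 and 31020026 with C1-27 at 4 h. Of 10 colorectal epithelial markers, 4 (KRT8, KRT18, KRT19 and EPCAM) exceeded 0.5 RPKM, reads normalised to gene length and library depth, in all 6 libraries, and none of 6 fibroblast, 5 leukocyte or 4 endothelial markers did. DMSO culture 1 stood apart from the other vehicle culture. Over the 7667 genes that passed the expression filter, a mean of treated and vehicle RPKM above 0.5, the log2 ratio of DMSO culture 2 to culture 1 had an SD of 0.390, whereas the ratio of C1-27 to DMSO culture 2 had an SD of 0.150 and that of C1-27 to culture 1 an SD of 0.347. The difference ran with gene length. Among 242 genes of 300 to 2000 bp, the median log2 ratio of C1-27 was -0.35 to culture 1 and 0.05 to culture 2, and among 1096 genes of 100000 to 500000 bp it was 0.09 and -0.02. The part of this difference in the fold changes below was not tested, and the main values are therefore given for the mean of DMSO and for either culture singly.

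**Figure D1:**
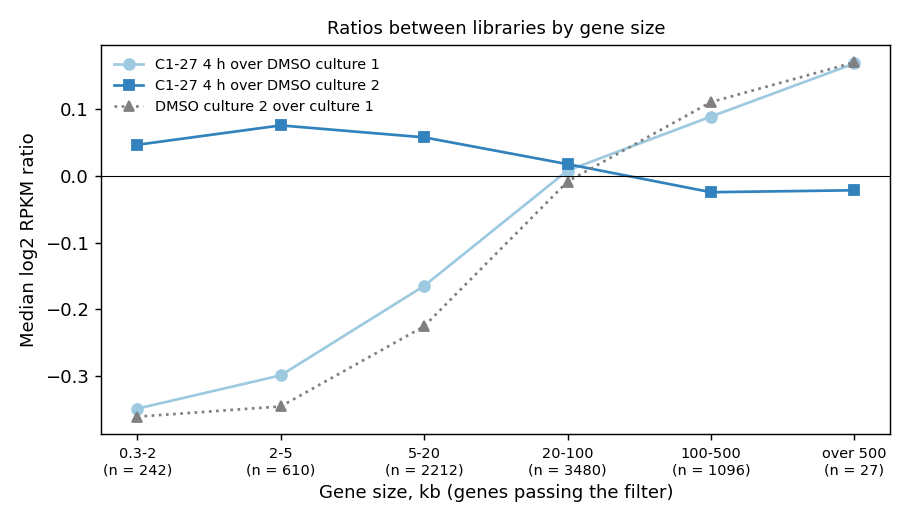
Median log2 RPKM ratio (y axis) in 6 classes of gene size in kb (x axis), for C1-27 at 4 h over each DMSO culture and for DMSO culture 2 over culture 1. The ratio to culture 1 follows that between the DMSO cultures, from -0.35 in the shortest genes to 0.17 in the longest, while the ratio to culture 2 stays between -0.02 and 0.08.

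The genes highest over vehicle after 4 h of C1-27 included those of glutathione synthesis (SLC7A11, GCLM and GCLC), thioredoxin reductase (TXNRD1), haem oxygenase (HMOX1) and OSGIN1. In edgeR's quasi-likelihood fit, with p adjusted by Benjamini-Hochberg, 3 of 14431 genes (0.0208%) rose at an adjusted p under 0.05, namely OSGIN1, SLC7A11 and AUTS2, and GCLM lay at the threshold (adjusted p = 0.0504). No gene fell in this test, in which 63 genes (0.437%) were lower and 52 (0.36%) higher at an unadjusted p under 0.05. DESeq2 called 0 genes in either direction, with 15 higher and 3 lower at an unadjusted p under 0.05. By size alone, 11 genes (0.143%) were at least 1.4-fold above each DMSO culture and 18 (0.235%) at least 1.4-fold below each. For comparison, 1657 genes (21.6%) were above both DMSO cultures by any amount and 1450 (18.9%) below both. Of the 11 genes above each culture, 8 belonged to the antioxidant lists, as did 38 of all 7667 genes that passed the filter. Among the 11, 4 (OSGIN1, HMOX1, CYP4F11 and HIST1H3E) passed the expression filter only through their level with C1-27.

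**Figure D2:**
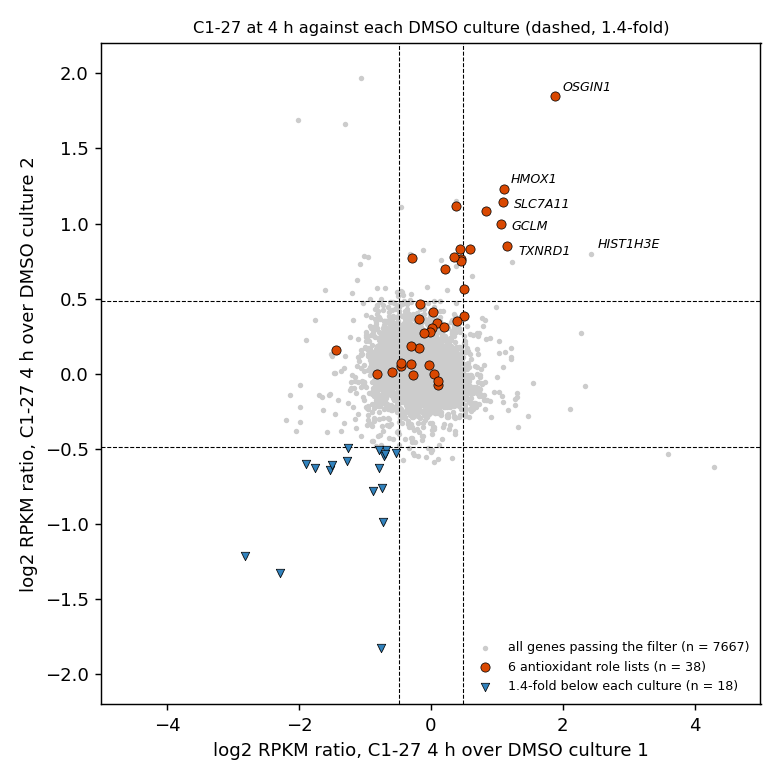
Log2 RPKM ratio of C1-27 at 4 h over DMSO culture 1 (x axis) and over DMSO culture 2 (y axis) for 7667 genes, with the 38 antioxidant genes and the 18 genes at least 1.4-fold below each culture marked and dashed lines at 1.4-fold. The cloud is wider along culture 1, and the antioxidant genes make up 8 of the 11 points in the upper right corner.

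OSGIN1, an oxidative stress-induced growth regulator, had the highest ratio to DMSO of the 11 genes. It lies on chromosome 16 from 83986827 to 83999937 (hg19). Its nascent RNA was 0.359 and 0.368 RPKM in the DMSO cultures and 1.33 RPKM with C1-27. The treated library was thus well above a pair of nearly equal vehicle values. OSGIN1 rose 3.65-fold, or 3.70- and 3.60-fold against DMSO cultures 1 and 2 (edgeR log2 fold change 1.89, standard error 0.371, adjusted p = 0.00523), and the counts behind it, 110, 197 and 673, gave an exact 95% Clopper-Pearson interval of the count ratio from 3.17 to 4.18. This interval covers counting error only.

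Genes for glutathione synthesis formed the next group. SLC7A11, the light chain of the transporter that imports cystine, the oxidised form of the limiting amino acid of glutathione, lies on chromosome 4 from 139085248 to 139163503. It gave 0.562 and 0.540 RPKM in DMSO and 1.19 RPKM with C1-27. It rose 2.17-fold (2.12 and 2.21 against the single cultures, edgeR log2 fold change 1.14, standard error 0.241, adjusted p = 0.0105). The DMSO values of SLC7A11 differed little and the treated value lay outside them. GCLM and GCLC encode the modifier and catalytic subunits of glutamate-cysteine ligase, the rate-limiting enzyme of glutathione synthesis. GCLM, on chromosome 1 from 94352590 to 94375012, gave 2.27 and 2.38 RPKM in DMSO and 4.74 with C1-27, a ratio of 2.04 (2.09 and 1.99 against the single cultures, edgeR log2 fold change 1.05, standard error 0.242). GCLC, on chromosome 6 from 53362140 to 53409927, gave 2.32 and 1.97 RPKM in DMSO and 3.50 with C1-27, a ratio of 1.63 with an edgeR adjusted p of 1.00. Both subunits were above each vehicle culture, GCLC by 1.51- and 1.78-fold. GSR, which reduces oxidised glutathione, fell just short of the 1.4-fold bound against 1 culture. It gave 2.68 and 2.17 RPKM in DMSO and 3.67 with C1-27, ratios of 1.37 and 1.70. The last enzyme of the pathway, glutathione synthetase (GSS), and the heavy chain that pairs with SLC7A11, SLC3A2, did not stand on the same side of both DMSO cultures. Of 12 listed genes of glutathione synthesis, recycling and cystine import, 8 passed the filter, 3 were at least 1.4-fold above each culture and none was at least 1.4-fold below each.

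**Figure D3:**
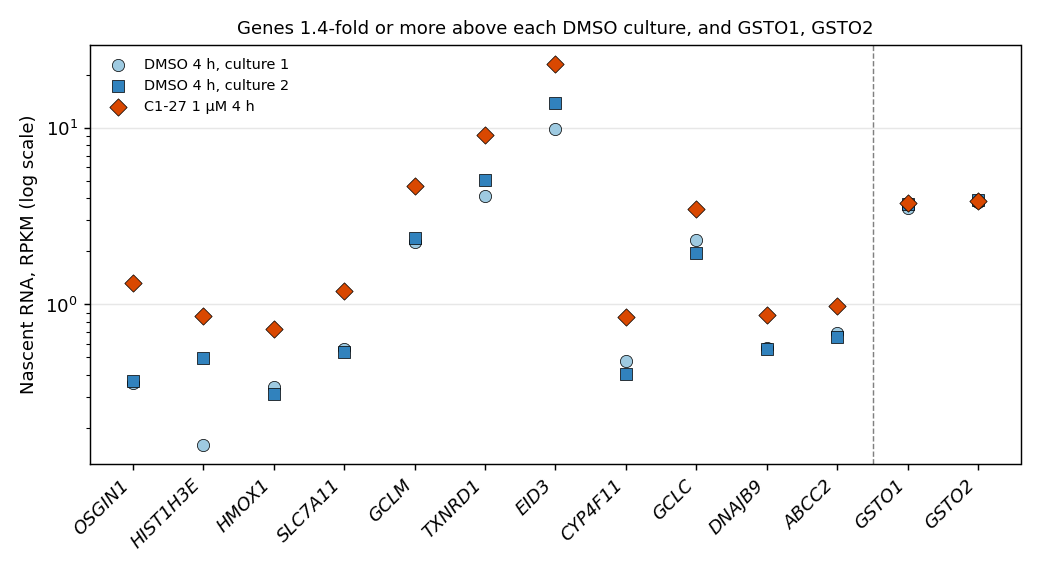
RPKM (log axis) in the 2 DMSO cultures and with C1-27 at 4 h for the 11 genes at least 1.4-fold above each DMSO culture, and for GSTO1 and GSTO2 at the right. The treated point is above both vehicle points in all 11 genes, whereas for GSTO1 and GSTO2 the 3 points lie between 3.51 and 3.90 RPKM.

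In the thioredoxin system, TXNRD1, the cytosolic reductase that recycles thioredoxin, was furthest above DMSO. This gene of chromosome 12, from 104609559 to 104744062, gave 4.11 and 5.09 RPKM in DMSO and 9.17 with C1-27. The ratio was 1.99 (2.23 and 1.80 against the single cultures), with 47186 counts in the treated library and an edgeR adjusted p of 1.00 (unadjusted p = 0.000958). EID3, a ratio of 1.96, lies on the same strand with all of its 1473 bp inside TXNRD1, so reads from both genes cannot be told apart there. TXN, the thioredoxin itself, gave 8.79 and 9.07 RPKM in DMSO and 11.6 with C1-27, a ratio of 1.30. SRXN1, the sulfiredoxin that repairs overoxidised peroxiredoxins, gave 3.25 and 2.48 RPKM in DMSO and 4.41 with C1-27, ratios of 1.36 and 1.78 to the single cultures. The treated library was above both vehicles at TXNRD1, TXN and SRXN1. Among the peroxiredoxins, which break down peroxides, PRDX1 had a ratio of 1.16, and PRDX5 had a ratio of 0.552 that was 0.367 against culture 1 and 1.11 against culture 2. Among 9 of 10 genes of this list that passed the filter, 1 was at least 1.4-fold above each culture.

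The haem, quinone and NADPH lists each had few genes past the bound. HMOX1, the inducible haem oxygenase, on chromosome 22 from 35777060 to 35790207, had 104 and 166 counts in DMSO and 370 with C1-27, or 0.338, 0.310 and 0.727 RPKM. Its ratio was 2.25 (2.15 and 2.35), with an exact 95% Clopper-Pearson interval of the count ratio from 1.94 to 2.67 and an edgeR adjusted p of 1.00. The treated value of HMOX1 was outside the DMSO range at a low level. FTH1, the ferritin heavy chain that stores iron, was 1.36-fold of DMSO (1.16 and 1.62), and the light chain FTL 1.11-fold (0.822 and 1.71), so that FTL lay between the vehicle cultures. CYP4F11, a fatty acid and drug hydroxylase on chromosome 19 from 16023180 to 16045676, gave 0.479 and 0.403 RPKM in DMSO and 0.854 with C1-27, a ratio of 1.94. ABCC2, an efflux pump for glutathione and glucuronide conjugates on chromosome 10 from 101542463 to 101611662, gave 0.691 and 0.658 RPKM in DMSO and 0.975 with C1-27, a ratio of 1.45. Both genes were above each vehicle culture, ABCC2 only just past the bound at 1.41 and 1.48. NQO1, the quinone reductase, gave 1.73 and 1.04 RPKM in DMSO and 2.25 with C1-27, so its ratio of 1.62 was 1.30 against culture 1 and 2.17 against culture 2. ME1 gave 1.17 and 1.26 RPKM in DMSO and 1.65 with C1-27, a ratio of 1.36 (1.42 and 1.31). No gene of the NADPH list was 1.4-fold or more from the mean of DMSO. Among the remaining listed NRF2 targets, PIR, an iron-binding nuclear protein, had a ratio of 1.51 (1.37 and 1.68) and GLA, the lysosomal alpha-galactosidase, a ratio of 1.47 (1.28 and 1.71).

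Over the 6 antioxidant lists together, 63 genes were listed and 38 passed the filter. Of these 38, 21 (55.3%) were above both DMSO cultures and 2 (5.26%) below both, against 21.6% and 18.9% of all genes that passed. Among the 38, OSGIN1, HMOX1 and CYP4F11 passed the filter only through their treated level, which favoured their place above both cultures. The median log2 ratio of the 38 was 0.18 to the mean of both cultures, 0.10 to culture 1 and 0.36 to culture 2, beside -0.01, -0.04 and 0.02 over all genes. Of the 56 listed genes that edgeR tested, 12 were higher and 0 lower at an unadjusted p under 0.05, and 2 rose at an adjusted p under 0.05. The lists were drawn up with results of these libraries known, so these counts describe the genes and are not independent evidence of their direction.

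**Figure D4:**
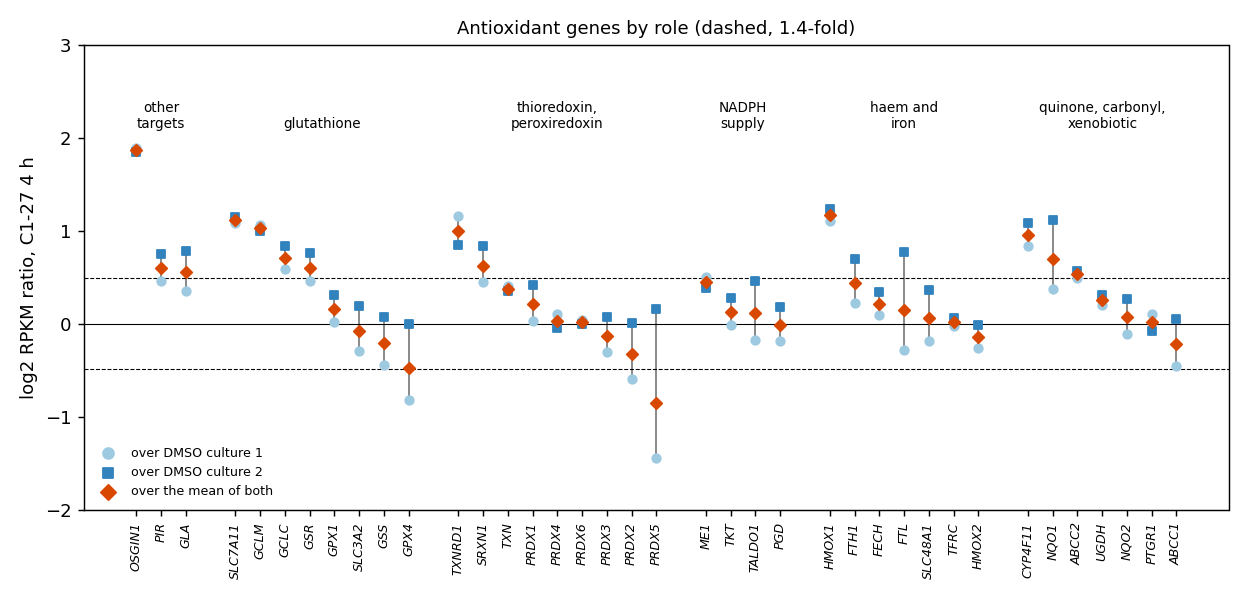
Log2 RPKM ratio of C1-27 at 4 h (y axis) for the 38 antioxidant genes that passed the filter, grouped by role and ordered within each, over DMSO culture 1, over culture 2 and over the mean of both, with dashed lines at 1.4-fold. For OSGIN1, SLC7A11, GCLM and HMOX1 both cultures give nearly the same ratio, whereas FTL and PRDX5 lie on opposite sides of 0.

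Regulators of the pathway stood nearer to DMSO at 4 h. NFE2L2 itself gave 5.97 and 5.91 RPKM in DMSO and 6.20 with C1-27, a ratio of 1.04. KEAP1 gave 1.51 and 0.938 RPKM in DMSO and 1.16 with C1-27, inside the vehicle range. BACH1, a repressor that competes at the same elements, had a ratio of 1.06 and SQSTM1, an autophagy receptor that binds KEAP1, a ratio of 1.14. The small MAF partners MAFG and MAFK lay between the vehicle cultures, with ratios of 0.693 and 0.647 to culture 1 and of 1.36 and 1.14 to culture 2. All 9 listed regulators passed the filter, and none was 1.4-fold or more from the mean of DMSO. The drug target was also near its vehicle level. GSTO1 gave 3.51 and 3.72 RPKM in DMSO and 3.78 RPKM with C1-27, a ratio of 1.04, and its paralogue GSTO2 gave 3.81, 3.90 and 3.89 RPKM, a ratio of 1.01. None of the 7 glutathione transferases that passed the filter, of 18 listed, was 1.4-fold or more from the mean of DMSO. GSTP1 had a log2 ratio of -0.44 to the mean, -0.74 to culture 1 and -0.06 to culture 2. For GSTK1 these were -0.34, -0.55 and -0.08.

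DNAJB9 and HIST1H3E were the raised genes outside the antioxidant lists, apart from EID3. DNAJB9, an ER co-chaperone of the unfolded protein response on chromosome 7 from 108210189 to 108215294, had 68 and 116 counts in DMSO and 173 with C1-27, or 0.569, 0.557 and 0.876 RPKM. Its ratio was 1.56, nearly equal against either culture, but its unadjusted edgeR p was 0.169. XBP1, the transcription factor of the same response, gave 1.86 and 1.84 RPKM in DMSO and 2.40 with C1-27, a ratio of 1.30. The chaperone HSPA5 gave 8.95 and 4.80 RPKM in DMSO and 6.72 with C1-27, between the vehicle cultures. P4HB, which encodes protein disulfide isomerase, had a ratio of 0.810 that was 0.602 against culture 1 and 1.24 against culture 2. Of 20 ER genes that passed the filter, of 21 listed, 8 (40.0%) were above both DMSO cultures and 1 (5.0%) was below both. Over all genes that passed, these shares were 21.6% and 18.9%. DNAJB9 was the 1 ER gene past 1.4-fold against each. HIST1H3E rested on 2, 9 and 15 counts, and its exact 95% interval of the count ratio ran from 0.971 to 5.45. Replication-dependent histone genes have near-identical copies among which reads may be split, so this gene is uncertain.

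Other stress programmes showed few genes past the bound. Of 14 genes of ATF4 and the integrated stress response that passed the filter, 0 were at least 1.4-fold above each culture and 1, DDIT4, was at least 1.4-fold below each, while DDIT3, TRIB3 and ATF4 had ratios of 1.05, 0.862 and 0.874 to the mean of DMSO. Among 12 cytosolic heat shock genes none was past 1.4-fold against each culture. HSP90AA1, a cytosolic chaperone, gave 4.28 and 2.66 RPKM in DMSO and 2.43 with C1-27, ratios of 0.568 and 0.915, and HSPB1, a small heat shock protein, had ratios of 0.478 and 0.751. CDKN1A, a cell cycle inhibitor in the list of p53 targets, gave 1.18 and 1.32 RPKM in DMSO and 1.53 with C1-27, a ratio of 1.22. The 11 genes of that list that passed the filter had a median log2 ratio of -0.03 to the mean of DMSO, with 0 past 1.4-fold against each culture. None of 36 genes of the proteasome list and none of 15 genes of cholesterol synthesis and uptake was 1.4-fold or more from the mean of DMSO. The proteasome list held the transcription factor NFE2L1 and the assembly factor POMP beside the subunits. NFE2L1 had a log2 ratio of -0.48 to the mean, -0.85 to culture 1 and 0.03 to culture 2. HSF1 and MTF1, which encode the transcription factors of the heat shock and metal responses, had ratios of 0.805 and 0.964 to the mean of DMSO and lay between the vehicle cultures. The NF-κB list (5 genes passed), the Wnt list (3), the BMP and TGF-β list (5), the BCL2 family (7) and the ERK feedback list (12) also had no gene past 1.4-fold against each culture. The same held for 22 genes of cyclins, G1 kinases and replication, 73 of mitochondrial ribosomal proteins and 77 of cytosolic ribosomal proteins.

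YAP-TEAD targets were sensitive to the choice of vehicle. THBS1, the matrix protein thrombospondin 1, gave 0.694 and 2.13 RPKM in DMSO and 2.04 with C1-27, so its ratio of 1.44 to the mean was 2.94 against culture 1 and 0.958 against culture 2. CYR61, a secreted matricellular protein, gave 4.62 and 8.33 RPKM in DMSO and 7.69 with C1-27. Both treated values lay inside the vehicle range, and none of 12 genes of this list was past 1.4-fold against each culture.

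The genes at least 1.4-fold below each DMSO culture were mostly short and rested on few counts. These 18 genes had a median size of 1249.5 bp, against 28209 bp for all 7667 genes, and 17 of the 18 (94.4%) were shorter than 3500 bp, against 7.17% of all. Fewer than 100 counts in each of the 3 libraries lay behind 15 of them, and behind 315 of all 7667 genes. In 14 of the 18, DMSO culture 2 was itself below culture 1, as it was in 4418 of all 7667 genes. The 17 of these genes that edgeR tested had an adjusted p of 1.00, and 9 of the 18 had an RPKM at or under 0.5 with C1-27. MT2A, a metallothionein that binds zinc and copper, had the most counts, but it left this group when RPKM was rescaled by TMM or DESeq2 size factors. On chromosome 16 from 56642478 to 56643409, it had 160 and 279 counts in DMSO and 184 with C1-27, or 7.34, 7.35 and 5.10 RPKM. The treated value of MT2A lay below a pair of equal vehicle values, with a ratio of 0.695 to either culture and an exact 95% Clopper-Pearson interval of the count ratio from 0.582 to 0.828, but an unadjusted edgeR p of 0.253.

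The other lowered genes included growth regulators and stress genes. DDIT4, an inhibitor of mTORC1 signalling, gave 0.887 and 0.546 RPKM in DMSO and 0.366 with C1-27 on 44, 47 and 30 counts, a ratio of 0.510. PHLDA2, an imprinted growth regulator, gave 2.27 and 1.22 RPKM in DMSO and 0.782 with C1-27, a ratio of 0.449. JUNB, an AP-1 subunit, gave 0.730 and 0.651 RPKM in DMSO and 0.449 with C1-27 on 31, 48 and 32 counts, a ratio of 0.651. The treated value was below both vehicles in each of these 3 genes, on 30 to 61 counts a library. SMPD2, a neutral sphingomyelinase, had a ratio of 0.528 and C19orf33 of 0.458. The histone genes HIST1H2AK, HIST1H4D and HIST2H2AB had ratios of 0.214, 0.383 and 0.405 with 7, 25 and 20 treated counts, and the linker histone H1FX, outside the histone list, a ratio of 0.564. NDNL2 lies inside FAM189A1 and LOC90834 inside BRD1 on the same strand, GTF2H2D was counted over 98 bp, and RNY5 had at most 1 count in any of the 3 libraries, so these 4 are uncertain. The remaining 4, SLC7A5P1, LOC100505648, P2RX5-TAX1BP3 and TAS2R14, had between 11 and 125 counts in each of the 3 libraries. All 615 bp of SLC7A5P1 lie inside BOLA2 and LOC440354 on the same strand, so SLC7A5P1 is uncertain as well.

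Among genes of growth control with more counts, MYC, the proto-oncogene, gave 22.8 and 20.2 RPKM in DMSO and 18.3 with C1-27, a ratio of 0.850. CCND1, which encodes cyclin D1, gave 6.55 and 4.62 RPKM in DMSO and 4.36 with C1-27, a ratio of 0.782. ZFP36L1, an mRNA decay factor, gave 6.32 and 3.84 RPKM in DMSO and 3.27 with C1-27, a ratio of 0.644 with an unadjusted edgeR p of 0.0323. Each was below both vehicle cultures, though in all 3 the DMSO cultures differed by more than the treated library did from culture 2. Of 18 immediate-early genes that passed the filter, 6 (33.3%) were below both cultures and 2 (11.1%) above both. Over all genes that passed, the shares were 18.9% and 21.6%.

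Against the mean of DMSO the lowered side was larger, and it followed DMSO culture 1. A ratio of 1.4 or more below the mean was found for 170 genes (2.22%) and above it for 35 (0.457%). Of the 170, 169 were also past 1.4-fold against culture 1 and 19 against culture 2. In 165 of the 170, culture 2 was below culture 1, as it was in 4418 of all 7667 genes. Histone genes made up 20 of the 170 and 46 of all 7667 genes. Over the 46 histone genes that passed the filter, the median log2 ratio of C1-27 was -0.86 to culture 1 and 0.06 to culture 2, and DMSO culture 2 was at a median of -1.04 to culture 1. Of the 35 genes above the mean, 13 were antioxidant genes, as were 38 of all 7667 genes.

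The raised genes also stood above the 4 h vehicle in the culture given C1-27 for 24 h. All 11 were above the DMSO mean at 24 h, as were 4161 of all 7667 genes, at ratios from 1.43 for GCLM to 4.35 for OSGIN1. SLC7A11 had a ratio of 3.24, CYP4F11 of 2.59, GCLC of 1.92 and HMOX1 of 1.55 at 24 h, beside 2.17, 1.94, 1.63 and 2.25 at 4 h. The direct comparison of 24 h with 4 h (edgeR, adjusted p of 1.00 for each of the 11) called no difference. Both comparisons used the same DMSO cultures, and no 24 h vehicle was analysed here. With C1-14 at 10 μM the ratios to DMSO at 4 h were 1.13 for OSGIN1, 1.09 for SLC7A11, 1.07 for GCLM, 1.06 for TXNRD1 and 0.887 for HMOX1. The median log2 ratio of the 11 genes was 0.99 with C1-27 at 4 h, 0.94 at 24 h, 0.08 with C1-14 and 0.55 with GSTO1 siRNA, beside -0.01, 0.02, 0.0038 and -0.03 over all genes that passed the filter. The DMSO values that chose these genes enter each of the ratios. The doses of the compounds differed, so these values are set side by side without a test.

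**Figure D5:**
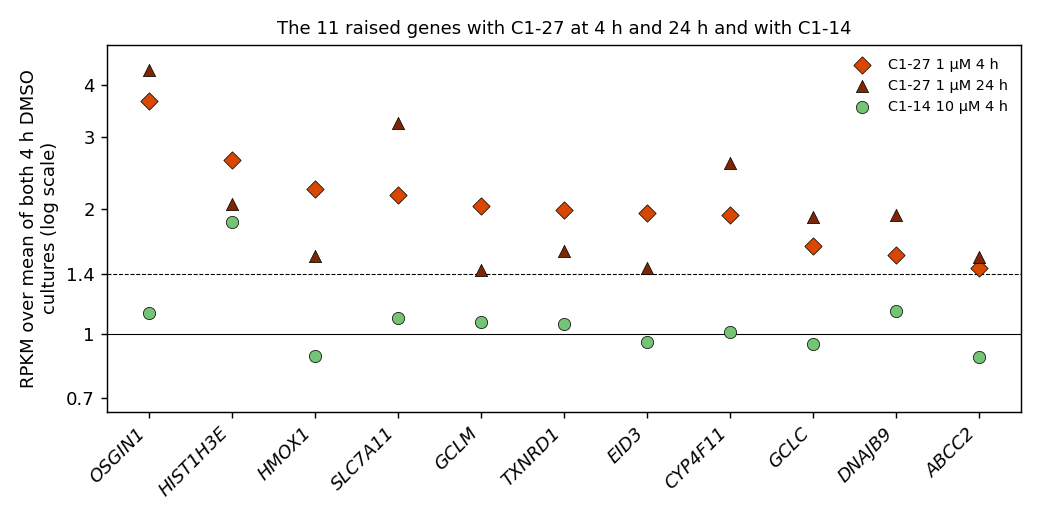
RPKM over the mean of both 4 h DMSO cultures (log axis) for the 11 raised genes with 1 μM C1-27 at 4 h and 24 h and with 10 μM C1-14 at 4 h, with lines at 1 and 1.4. Both C1-27 cultures are above 1.4 for every gene, whereas with C1-14 the genes lie between 0.882 and 1.13 apart from HIST1H3E at 1.87.

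AUTS2, a neuronal chromatin regulator and the third gene that rose in the test, was nearly silent. It had 1 and 9 counts in the DMSO cultures and 56 with C1-27 over a gene of 1193981 bp on chromosome 7, from 69063905 to 70257885. The other cultures had 9 counts with C1-27 at 24 h, 15 with C1-14 and 7 with siRNA. Its edgeR log2 fold change was 3.21 (standard error 0.666, adjusted p = 0.0102), and its RPKM was far below the expression filter in every library. The library with C1-27 at 4 h had the highest count of all 6. AUTS2 reached 10 counts only in this library and in that with C1-14, so it passed the edgeR count filter through these 2. In the fit of the 3 libraries alone it was not tested.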

How the data were processed

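Nascent RNA of HCT116 cells was captured by Bru-seq and sequenced, with 1 library per culture. The submitters' processing notes name CASAVA 1.8.2, Bowtie 0.12.8, TopHat 1.4.1, bedtools 2.16.2 and build hg19, without saying what each was used for. The expected counts deposited by the authors tally the reads on each strand of each gene, introns included, without normalization, and not all are whole. The signal deposited by the authors is that count per counted base, and it was not used. The RPKM values deposited by the authors were scaled to counted gene length and to a library total of 23388425 and 40788845 for the DMSO cultures and 38683170 for C1-27 at 4 h.

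Ratios divided the RPKM of C1-27 at 4 h by the DMSO mean and by that of either culture, with no pseudocount added. Genes had to be longer than 300 bp and to have a mean of treated and vehicle RPKM above 0.5. A bound of 1.4-fold was counted without a test. Counts were rounded and tested with edgeR 4.0.16 in R 4.3.3, over genes with at least 10 counts in at least 2 libraries, with TMM scaling, all 6 libraries in 5 groups and Benjamini-Hochberg adjustment over 14431 genes. The 2 DMSO cultures gave its 1 residual degree of freedom, and the treated library was assumed to vary as they did. Named genes were those that passed the edgeR test, the 15 largest ratios in each direction past 1.4-fold against each culture, GSTO1 and GSTO2, the regulators NFE2L2, KEAP1, HSF1, ATF4 and MTF1, and in each gene list those past 1.4-fold against each culture with up to 6 further members by size. HSPA5 and DDIT3 were added after their values were seen, and some genes that the rule named are not reported here. The comparison, the gene lists and the rules were chosen with earlier results of these data known.

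On simulated data with a dispersion of 0.04, near the 0.0381 fitted here, edgeR found 17 of 100 genes changed 2-fold and 91 of 100 changed 4-fold with 6 false calls. The changed genes all had expected counts above 100, and both simulated DMSO libraries were drawn from the same means. These shares therefore do not cover genes with fewer counts or the difference by gene length between the DMSO cultures. Promoters came from a RefSeq table for GRCh38.p14. Alternatives were DESeq2 1.42.0, other scaling and filters, a pseudocount of 0.1 RPKM and each DMSO culture alone. Python 3.11.15 with numpy 2.4.6, pandas 2.3.3, scipy 1.17.1 and matplotlib 3.10.9 was used for the remaining steps.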

Additional observations from a re-analysis of the deposited data

Results flagged for a closer look

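For 5 named genes the C1-27 library at 24 h differed from that at 4 h in a direct edgeR contrast of both libraries. Over all 14431 genes tested, this contrast called 6 higher and 12 lower at 24 h. The sterol genes INSIG1, which retains SREBP in the ER, and FDFT1, squalene synthase, were higher at 24 h, by log2 fold changes of 1.76 (adjusted p = 0.0122) and 1.27 (adjusted p = 0.0297). At 4 h their ratios to DMSO were 0.873 and 1.14. THBS1 and CYR61 were lower at 24 h, by log2 fold changes of -1.67 (adjusted p = 0.00434) and -1.62 (adjusted p = 0.0204), and both DMSO cultures differed 3.07-fold at THBS1. AUTS2, with 56 counts at 4 h and 9 at 24 h, was lower by a log2 fold change of -2.94 (adjusted p = 0.0297). Each time rests on 1 library, and no 24 h vehicle was analysed here. AUTS2 was named because it was high in the 4 h library, so that choice favoured its fall at 24 h.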

How the results depend on the processing

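The edgeR test gave 3 higher genes as reported, 2 with DESeq2 size factors, with the legacy dispersion estimate (added after the data were seen) and with the 3 libraries alone, 1 without the count filter and 0 with DESeq2, and 0 lower genes in each of these. The adjusted p of OSGIN1 ran from 0.000184 to 0.0760, that of SLC7A11 from 0.00916 to 0.183, that of GCLM from 0.0504 to 1.00, and that of AUTS2 from 0.00291 to 1.00. For 24 h against 4 h, DESeq2 gave 2 higher and 3 lower genes against 6 and 12. Of the genes past 1.4-fold, 35 were higher and 170 lower. Without an RPKM filter these were 711 and 1813, above 1 RPKM 17 and 79, and at 2-fold 5 and 21. Against 1 DMSO culture alone they ranged from 40 to 156 and from 31 to 969, and with at least 100 counts in 1 library, a bound added after the data were seen, 101 were lower. Of the genes past the bound against each culture, 11 were higher and 18 lower. These were 347 and 648 without the RPKM filter, 4 and 9 above 1 RPKM, and 3 and 2 at 2-fold. With DESeq2 size factors 17 were higher, above 1000 bp 10 were lower, and with at least 100 counts 3 were lower. All 11 higher genes remained with TMM or DESeq2 scaling, which also brought in ABCB6, SRXN1, GSR and PIR, and 10 of the 11 with a pseudocount of 0.1 RPKM, which lost ABCC2. Of the 18 lower genes, 12 remained with the pseudocount, which lost DDIT4 and JUNB among others, and 17 with either scaling, which lost MT2A. TMM moved the median log2 ratio of all genes from -0.01 to 0.02 and DESeq2 size factors to 0.04. With DMSO culture 2 or culture 1 as the only control, the log2 ratio was 0.11 or -1.10 for FDXR, 0.040 or -1.32 for MRPL36, 0.16 or -1.45 for PRDX5 and -0.062 or 1.55 for THBS1, and the cause was not tested. The edgeR test could not be fitted without a DMSO culture, since no residual degree of freedom remains. No paired analysis was possible because only DMSO had more than 1 culture. A lone treated culture and few counts in short genes limit what can be called.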
